A study of Mus musculus with 2 samples.

Results

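The T cell receptor alpha locus of inflammation-experienced regulatory T cells was described from polyadenylated RNA. The members were all genes whose GENCODE M21 name begins with Trav, Traj or Trac. They came to 189 of 55536 genes, with 128 Trav segments, 60 Traj segments and Trac. All lay on the plus strand of chromosome 14 (mm10). Regulatory T cells form a CD4 T cell lineage that serves to hold immune responses in check, and they depend on the transcription factor Foxp3. The cells were primary cells of male adult mouse origin, 6 months of age, of the strain Foxp3CreERT2 x Rosa26YFP, in which the Foxp3 locus drives a tamoxifen-responsive Cre recombinase and a YFP reporter sits at Rosa26. The labels give bone marrow hematopoietic cells as the origin, and say neither what the inflammation was nor how many animals were pooled. All came from 1 biological replicate of 1 group, from which 2 technical libraries were sequenced with fragments of 100 to 300 bp. No control cells were analysed here, so no value below is a change caused by inflammation. Each SD is over the technical libraries (n = 2) and holds no variation between animals.

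A T cell builds its alpha chain by joining 1 V segment to 1 J segment, and the joined exon is then spliced to the constant region encoded by Trac. The V segments lie upstream, the J segments follow, and Trac closes the locus. The delta D, J and constant genes and Trdv3, Trdv4 and Trdv5 lie between the V and J arrays and are removed when an alpha chain is joined. Trdv1, Trdv2-1 and Trdv2-2 lie within the V array, between Trav21-dv12 and Trav23. In this mouse genome large stretches of the V array are repeated, and the copies carry the letters d and n in their names, so that many V segments have a near-identical or identical twin. A developing T cell can replace its first V to J joint with one between a more upstream V and a more downstream J.

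The Trav array covered 1550 kb, from Trav1 to Trav23 (chr14:52427928-53977678). The Traj array covered 63.8 kb and began 177 kb downstream of Trav23. Trac (chr14:54220521-54224206) started 1.68 kb after the last Traj. The Trav array fell into 5 stretches by name and order. The first 8 segments ran from Trav1 to Trav6-2, followed by a d block of 39 segments, an n block of 34, a plain block of 40 without either letter, and 7 segments from Trav17 to Trav23. The sequences of 4 copy pairs are given below because the counts of single V segments turn on them. Trav14d-1 and Trav14n-1 are identical, and in the other pairs a capital marks the base that differs or that only 1 copy has. The stretches are the last bases of the annotated V segment, where it joins J, except for Trav7-4 and Trav7d-4, for which 60 bases around a difference inside the segment are shown (GENCODE M21 transcripts, mm10, plus strand, 5′ to 3′).
Trav7-2 (chr14:53391083-53391142): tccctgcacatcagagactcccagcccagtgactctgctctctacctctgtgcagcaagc
Trav7d-2 (chr14:52684412-52684472): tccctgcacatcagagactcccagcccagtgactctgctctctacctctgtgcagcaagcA
Trav11 (chr14:53519799-53519859): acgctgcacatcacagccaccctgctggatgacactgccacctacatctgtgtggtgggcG
Trav11d (chr14:52824853-52824912): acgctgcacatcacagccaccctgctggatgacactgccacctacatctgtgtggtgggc
Trav7-4 (chr14:53461574-53461633): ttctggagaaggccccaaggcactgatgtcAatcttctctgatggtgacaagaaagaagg
Trav7d-4 (chr14:52770228-52770287): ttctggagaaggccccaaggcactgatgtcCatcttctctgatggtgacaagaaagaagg
Trav14d-1 (chr14:52856107-52856166): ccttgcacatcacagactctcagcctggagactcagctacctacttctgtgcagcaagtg
Trav14n-1 (chr14:53167119-53167178): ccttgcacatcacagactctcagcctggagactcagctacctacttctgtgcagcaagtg

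The J segments that led by count are shown because they carry the part of the chain next to the constant region. Capitals mark the letters TTN, GGN, NNN and GG in a row (N is any base), chosen for the conserved Phe-Gly-X-Gly turn of J segments, though TTN also takes in leucine codons. They were searched on the coding strand, without regard to frame, and 46 of the 60 Traj sequences (76.7%) held them. Traj33 and the pseudogene Traj61 held no match.
Traj18 (chr14:54200777-54200842): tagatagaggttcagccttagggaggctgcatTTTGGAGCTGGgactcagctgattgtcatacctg
Traj17 (chr14:54201775-54201837): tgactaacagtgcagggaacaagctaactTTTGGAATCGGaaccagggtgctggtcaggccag
Traj23 (chr14:54196081-54196140): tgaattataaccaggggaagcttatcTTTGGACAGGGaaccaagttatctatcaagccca
Traj27 (chr14:54192303-54192361): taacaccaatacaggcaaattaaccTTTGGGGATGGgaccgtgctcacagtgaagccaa
Traj9 (chr14:54209393-54209450): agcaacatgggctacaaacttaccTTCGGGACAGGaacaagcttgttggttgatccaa
Traj33 (chr14:54185358-54185414): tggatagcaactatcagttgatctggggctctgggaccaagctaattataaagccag
Traj61 (chr14:54155005-54155076): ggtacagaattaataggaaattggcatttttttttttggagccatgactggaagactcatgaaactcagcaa

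The libraries held 15386113 and 13604480 gene counts in technical replicates 1 and 2, and pairs of values are given in that order of the libraries. Regulatory T cell markers were present in both: Ikzf2 averaged 426 ± 0.460 TPM, Cd4 242 ± 6.65, Il2ra 175 ± 0.728, Ctla4 171 ± 14.03 and Foxp3 19.98 ± 2.93 TPM. Cd8a and Cd8b1, which mark CD8 T cells, summed to 13.96 and 13.37 TPM. The 4 B cell markers summed to 3.24 and 2.50 TPM. The 4 thymocyte markers summed to 0.640 and 0.260 TPM, and Rag1 and Rag2 had no count in either library. In bulk RNA, fewer cells of a type and less RNA per cell cannot be told apart.

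Alpha chain RNA was abundant, and most annotated V genes and J genes were given a count in both libraries. Trac, the constant region, had 29082 and 25228 estimated counts, or 3031.57 and 2963.75 TPM, with a mean of 2998 ± 48.0 TPM. Its counts were not called different between the libraries by the exact binomial test (log2 0.03, adjusted p = 0.0889). The beta chain constant genes Trbc1 and Trbc2 summed to 5819.8 and 5673.94 TPM, so Trac stood at 52.2 ± 0.102% of their level per length. A count was found in both libraries for 99 of 108 V genes and for 44 of 51 J genes. V genes without a count in either library were Trav6d-3 and Trav12d-3, both with a near-identical copy that had counts, and the J gene without one was Traj41. Of the pseudogenes, 4 of 20 Trav and 1 of 9 Traj had a count in both libraries.

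The 3 parts of the chain differed in counts and were closer per length. Trav segments summed to 8206 and 7300 counts, or 0.0533% of all gene counts in technical replicate 1 and 0.0537% in technical replicate 2. Traj segments summed to 442 and 382 counts. The Traj sequences are 29 to 72 nt long, and the effective lengths in the table are the sequence lengths less 49 nt, down to 0, so only 23 nt or fewer were left for a read to start in. Trac had 3.50 ± 0.0622 times the Trav counts. Per length, the Traj segments summed to 3020.75 and 2947.57 TPM, which was 99.6% and 99.5% of Trac. The Trav segments summed to 1960.71 and 1978.23 TPM, which was 64.7% and 66.7% of Trac. Reads that cross a V to J or a J to Trac joint have no single annotated segment to lie in, and how the authors' quantification treated them was not tested.

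Trac counts lay mostly on the longer of its annotated transcripts. Trac-202, of 935 nt with 4 exons of 261, 45, 108 and 521 nt, took 89.7% and 90.1% of the gene's counts and 78.17% and 78.81% of its TPM in the authors' transcript table. Trac-201, of 413 nt, took the rest.

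The V repertoire was spread over many segments and led by a few subfamilies. Copies were summed by the number after Trav, which gave 23 subfamilies. Trav7 led with 1477 and 1372 counts, or 18.0% (95% Clopper-Pearson interval 17.2 to 18.8) and 18.8% (17.9 to 19.7) of the Trav counts. Trav14 followed with 1187 and 1069 counts and a mean share of 14.6 ± 0.126%. Trav12 had 11.8 ± 0.243%, Trav9 9.35 ± 0.468%, Trav6 9.21 ± 0.113% and Trav3 6.87 ± 0.217%. These 6 subfamilies together took 69.9% and 70.4% of the Trav counts. At least 4 subfamilies were needed in each library to reach 50% of the counts, and 23 and 24 single segments. The effective number of subfamilies, the exponential of the Shannon entropy of their shares, was 12.5 and 12.3, with a mean of 12.4 ± 0.175.

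**Figure D1:**
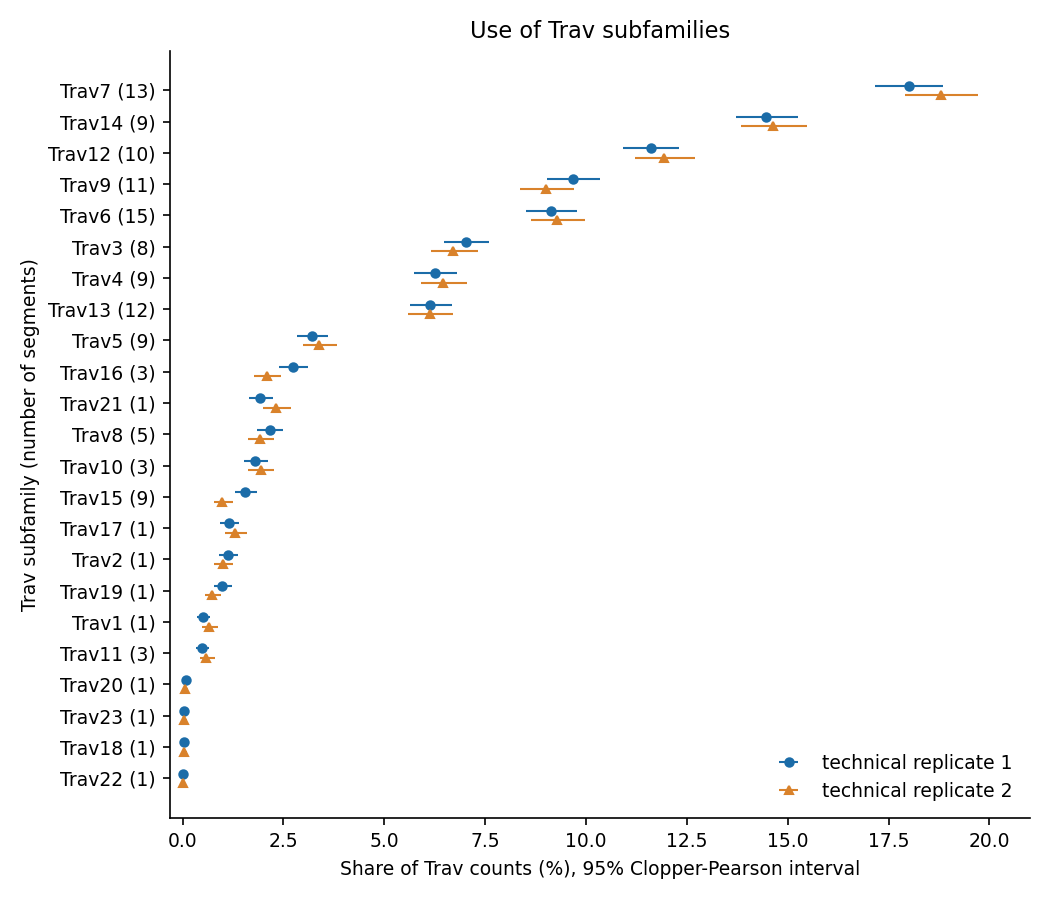
Share of all Trav counts taken by each subfamily, with the number of its segments in brackets; points are the technical libraries and bars are 95% Clopper-Pearson intervals. Trav7 leads at 18.0% and 18.8%, and Trav22 has no count.

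By counting error, the leading subfamilies were apart and the middle ones were not, though the order depended on the table: in the smaller gene table, described below, Trav14 led with 17.05% and Trav7 had 9.83%. That table lists all 9 Trav14 segments but lacks Trav7-1, Trav7d-2, Trav7d-5, Trav7n-5, Trav7n-6 and Trav7-5, so its Trav7 sum is incomplete. In the larger table the intervals of Trav7, Trav14 and Trav12 were apart from each other in both libraries, while those of Trav9 and Trav6 overlapped, as did those of Trav4 and Trav13. Over the 22 neighbouring pairs in the order, 12 had overlapping intervals in both libraries. Subfamilies with more gene segments had more counts (Spearman rho 0.88 over 23 subfamilies that share the same libraries, a description with no test). Counts per gene segment did not follow the same order. Trav21-dv12, a single segment, had a mean of 163.5 counts, Trav14 had 125 counts for each of its 9 segments, Trav7 had 110 and Trav6 had 47.6. These are counts and not levels per length. The least used subfamilies were single segments near the end of the array. Trav18 had 2 counts in each library, Trav23 had 3 and 2, the pseudogene Trav20 had 6 and 4, and the pseudogene Trav22 had 0 of 8206 and 0 of 7300, which allows up to 3 counts in each.

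Within the Trav7 subfamily the counts were uneven. Trav7-4 had the highest estimated count of the single V segments, with 483.09 and 388.32. Trav7d-4, its copy in the d block, had 209.55 and 271.59. These 2 sequences differ at 2 of 451 positions, counted from the first base of the transcript and written from Trav7-4 to Trav7d-4 as C130T and A317C. Trav7-2 and Trav7d-2, whose estimates change places between the libraries, are described with the copies below. Of the others, Trav7-3 had 127.23 and 95.57 counts and Trav7d-3 had 98.75 and 91.82. Trav7-5 had 84.99 and 92.38 counts, Trav7-6 had 65.72 and 48.15, and Trav7n-4 had 62.51 and 40.07. Trav7-1, the member farthest from Trac, had 31.11 and 41.58. The identical copies Trav7d-5 and Trav7n-5 were each given 21.51 and 17.31, and Trav7n-6 had 0.180 and 40.99.

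In the Trav14 subfamily all 9 segments were given counts, from 80.51 for Trav14d-2 in technical replicate 2 to 200.72 for Trav14-2 in technical replicate 1. Trav14d-1 and Trav14n-1 are identical, as are Trav14d-2 and Trav14n-2, so their counts do not show which copy was used. The Trav12 subfamily ranged from 51.51 and 59.61 counts for Trav12-1 to 206.73 and 213.86 for Trav12n-3, apart from Trav12d-3 and the pseudogene Trav12-4, which had 0. In the Trav9 subfamily Trav9-1 led with 224.09 and 160.43 counts, followed by Trav9n-4 with 164.29 and 157.29. The Trav6 subfamily was led by Trav6-7-dv9 with 160.93 and 140.22 counts and had Trav6d-3 at 0. Trav3-3 led the Trav3 subfamily with 195.17 and 148.24 counts, and its 3 pseudogenes had 0.50 counts or fewer.

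Some V segments can be joined to either an alpha or a delta chain and carry dv in their names. All 10 of them had counts in both libraries and together took 10.4% and 9.53% of the Trav counts. Their mean levels ran from 2.38 TPM for Trav15d-2-dv6d-2 to 45.2 TPM for Trav21-dv12. Delta chain RNA was low beside Trac, while Trdv1 and Trdv2-2 lay within the range of these dv segments. Trdc, the delta constant region, had 1.76 and 1.55 TPM, Trdv1 had 13.13 and 9.17, and Trdv2-2 had 7.07 and 8.11. The 11 delta segments summed to 24.05 and 19.98 TPM, or 0.793% and 0.674% of the Trac level, and 5 of them, among them both D segments and both J segments, had no count. The D segments have an effective length of 0 nt and could not be counted, and Trdj1 and Trdj2 have 2 and 10 nt. The other markers of gamma-delta T cells were Tcrg-C1 at 21.8 ± 4.39 TPM, Tcrg-C2 at 7.60 ± 2.52 TPM, Tcrg-C4 at 4.25 ± 2.11 TPM and Sox13, a transcription factor of some gamma-delta T cells, with no count.

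Along the array, V use was higher on the side of Trac. The 64 Trav segments nearer Trac took 64.9% and 61.4% of the Trav counts, with a mean of 63.2 ± 2.50%. In order towards Trac, the 32 segments from Trav1 to Trav5d-3 took 18.9 ± 3.22%, the 32 from Trav12d-3 to Trav9n-3 took 17.98 ± 0.722%, the 32 from Trav5n-3 to Trav13-1 took 35.4 ± 2.73% and the last 32, to Trav23, took 27.8 ± 0.225%. The median mean count per segment was 24.8, 32.5, 75.1 and 56.9 counts in the same order. Across single segments the Spearman correlation of mean count with order was 0.15 over all 128 and 0.28 over the 108 V genes. Segments share the libraries and their counts depend on how reads of copies were divided, so these are descriptions.

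**Figure D2:**
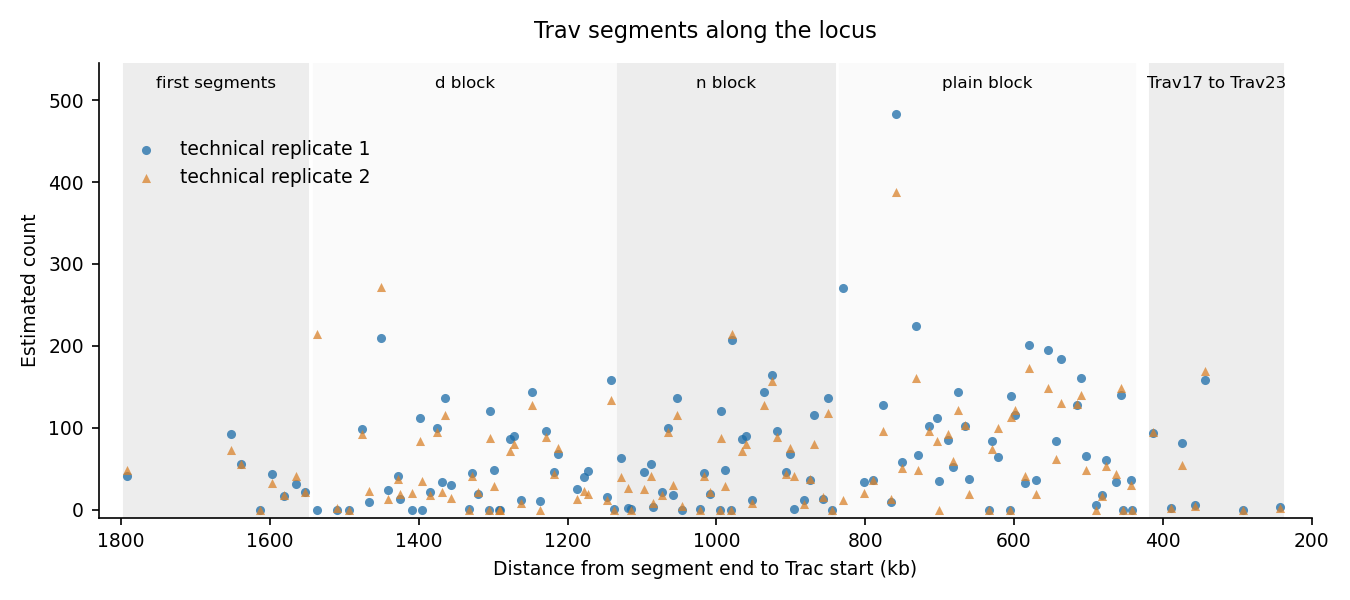
Estimated count of each of the 128 Trav segments against its distance to Trac in kb, with Trac to the right; circles are technical replicate 1, triangles technical replicate 2, and shading marks the 5 stretches of the array. The highest segment, Trav7-4, lies in the plain block at 483 and 388 counts, and low and high segments are mixed in the d, n and plain blocks. The first stretch reaches at most 92 counts (Trav2) and the last at most 169 (Trav21-dv12).

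By stretch, the plain block took 45.8% and 41.0% of the Trav counts with 40 segments. The d block took 23.1% and 26.7% with 39 segments, and the n block took 23.2% and 23.9% with 34. The d and n blocks together took 46.3% and 50.6%. The 7 segments from Trav17 to Trav23 took 4.19% and 4.47%, most of it on Trav21-dv12 with 158 and 169 counts, Trav17 with 94 and 95, and Trav19 with 81 and 54. The first 8 segments took 3.67% and 3.97%. Trav2 had 92 and 73 counts there and Trav1, at the far end, had 41 and 48.

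The division between d, n and plain copies rested on few distinguishing bases. For each segment the share of its 50-base words found in no other annotated gene was computed, since the effective lengths fit a 50-nt read. In 40 of the 128 Trav segments no such word was unique, and in 75 fewer than 50% were. Those 75 segments held 65.5% and 64.6% of the Trav counts. The median share of unique words was 55.2% in the plain block, 0.347% in the d block and 0% in the n block, against 93.0% in the first 8 segments and 100% in the last 7. There were 17 pairs of segments with identical sequence, 16 of them of a d and an n copy, 311 to 695 kb apart. In all 17 the estimated counts of both copies were equal within 0.02 in each library. They held 27.8% and 27.0% of the Trav counts. For Trav14d-1 and Trav14n-1, shown above, each copy was given 135.82 and 115.84 counts, so the value is a division of shared reads and not a count of either copy.

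In some pairs of near-identical copies nearly all counts of a library were given to 1 copy. Trav7-2 had 270.68 counts in technical replicate 1 and 12.26 in technical replicate 2, while Trav7d-2, which is the same sequence with 1 more base, had 0 and 214.64. Trav11 had 35.46 and 0, and Trav11d, 1 base shorter, had 0 and 34.75. The sums of these pairs were close in both libraries, at 270.68 and 226.9 for Trav7-2 with Trav7d-2 and at 35.46 and 34.75 for Trav11 with Trav11d. Trav7-4 with Trav7d-4 summed to 692.64 and 659.91. Not every pair was as even: Trav7-6 with Trav7n-6 summed to 65.9 and 89.14, and Trav10 with Trav10d to 101.83 and 115.8. Trav12n-3, which is 6 nt longer than Trav12d-3 and otherwise the same, took every count of that pair in both libraries. The posterior estimates deposited beside the counts were less one-sided. Trav7-2 had a posterior mean of 146 ± 85.0 (posterior SD) in technical replicate 1 and Trav7d-2 had 125 ± 85.0, and in technical replicate 2 they had 83.8 ± 53.3 and 143 ± 53.3. Trav12d-3, at 0 by estimated count, had posterior means of 50.2 ± 43.0 and 44.99 ± 34.5.

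**Figure D3:**
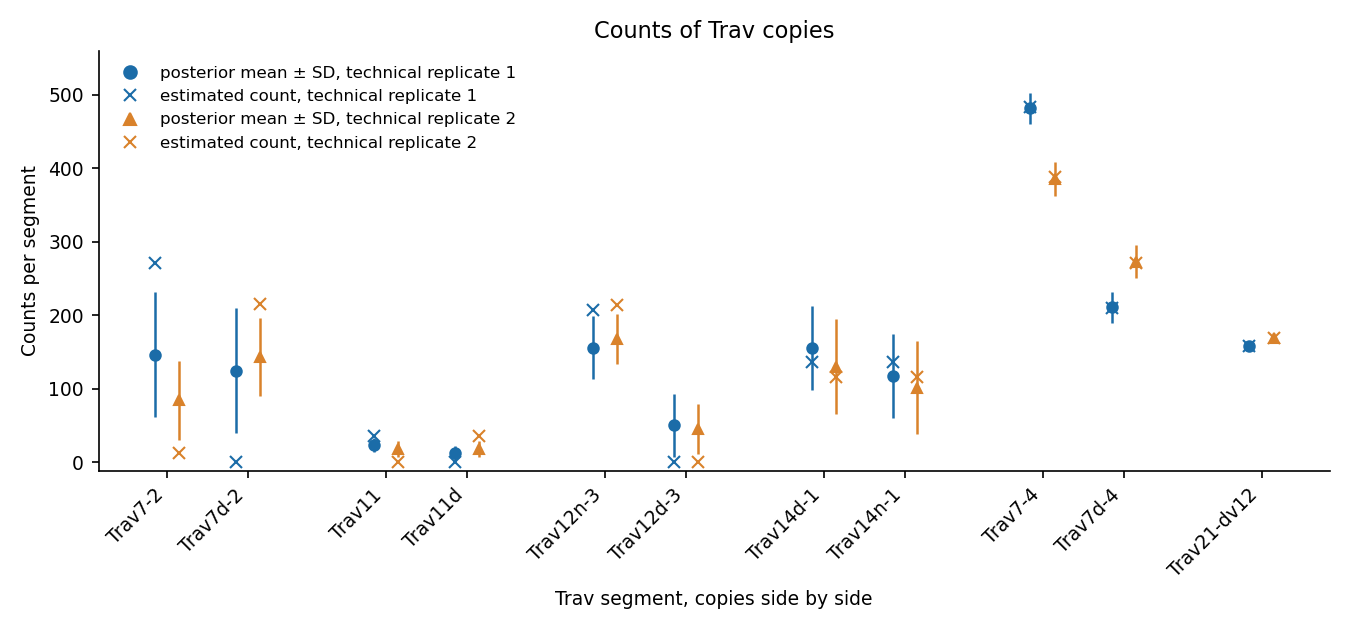
Counts of 5 pairs of Trav copies and of Trav21-dv12, whose 50-base words are all unique; crosses are estimated counts, and circles and triangles are posterior means with bars of 1 posterior SD, for each technical library. Trav7-2 and Trav7d-2 change places between the libraries by estimated count while their posterior ranges overlap, and Trav21-dv12 has hardly any posterior spread.

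The posterior SD followed the share of unique sequence. Among Trav segments with a mean posterior count of at least 10, it had a median of 55.1% of the posterior mean in those with no unique word (34 segments), 17.5% in those with some but under 50% (31 segments), 7.27% in those with 50% or more (34 segments) and 0% in the 6 with all words unique. The Spearman correlation across these 105 segments was −0.86, a description across segments with no test. At a mean posterior count of at least 50, the posterior SD was over 50% of the mean in 13 segments. The largest were Trav6n-7, at 64.9 ± 43.7 and 70.2 ± 45.3, and Trav4n-4, at 80.7 ± 55.8 and 82.3 ± 51.7. Trav6d-7, at 71.3 ± 43.9 and 79.7 ± 45.01, Trav12d-1, at 91.6 ± 60.8 and 94.96 ± 48.1, and Trav14d-2, at 90.2 ± 46.5 and 74.3 ± 45.6, came after Trav7-2. Each is 1 of a set of copies, and none of these 6 segments had a unique word.

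The libraries were then compared gene by gene with the two-sided exact binomial test. Over all genes with at least 10 counts summed, 3328 of 17334 (19.2%) were called at an adjusted p under 0.05 (Benjamini-Hochberg), which is the background for the members. Of the 143 members tested, 11 (7.69%) were called, 4 higher in technical replicate 1 and 7 higher in technical replicate 2, and the other 46 members were too low to test. None of the 36 Traj segments tested was called. Over 2-fold, 9 members (6.29%) were called, against 4.93% of all genes tested. The median log2 ratio of technical replicate 1 over 2 was 0.01 for the 106 Trav tested and 0.09 for the 36 Traj tested, against 0.00 over all genes tested. The test holds only for these libraries and takes the estimated counts as read counts, without their posterior spread.

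All 11 members called were Trav segments. In 10 of the 11 fewer than 50% of the 50-base words were unique, as in 64 of the 106 Trav segments tested, and in 5 the estimated count was 0 in 1 library. They were Trav7d-2 (adjusted p = 6.15e-68), Trav7-2 (adjusted p = 4.05e-55), Trav11d, Trav11, Trav7n-6, Trav10d, Trav9d-4, Trav9n-1, Trav7d-4, Trav4-3 and Trav16d-dv11. For 6 of them the posterior ranges of 1 SD overlapped between the libraries after scaling to the same depth. Trav7n-6, for example, had 0.180 and 40.99 counts (adjusted p = 1.01e-11) and posterior means of 25.7 ± 15.3 and 23.8 ± 12.9. Trav7n-6 had no unique word and shared 99.7% of its words with a gene that is not a member. Reads given to that gene are not in the Trav7 sum. Trav10d had 0 and 20.1 counts (adjusted p = 1.37e-05) and posterior means of 3.6 ± 3.81 and 22.1 ± 8.70, which did not overlap. The pseudogene Trav9n-1 had 1.68 and 26.27 counts (log2 −3.88, adjusted p = 1.71e-05). Trav16d-dv11 had 47.49 and 19.62 counts (log2 1.06, adjusted p = 0.0306). Trav4-3, in which 76.0% of the words were unique, had 64.33 and 99.52 counts (log2 −0.82, adjusted p = 0.00461).

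Few differences were called once the copies were summed. After Trav segments were summed by subfamily, 1 of the 20 subfamilies tested was called, and 3320 of all 17248 genes and subfamilies (19.2%) were. This was Trav15, with 127 and 72.0 counts (log2 0.64, adjusted p = 0.020). Its segments with the most counts, Trav15-1-dv6-1 with 37.22 and 19.05 and Trav15-2-dv6-2 with 35.82 and 19.03, were both higher in technical replicate 1. So were Trav15d-1-dv6d-1 with 29.78 and 14.01 and the identical copies Trav15d-2-dv6d-2 and Trav15n-2, each with 11.59 and 7.98. Trav15n-1, whose sequence lies wholly within that of Trav15d-1-dv6d-1, went the other way with 0 and 3.94. The ratio of observed to sampling variance between the libraries averaged 7.39 over the 106 single Trav segments tested and 1.60 over the 20 subfamilies, where 1 is the sampling of reads alone. It averaged 0.797 over the 36 Traj segments and 4.98 over all genes tested. Its median was 1.07 for single Trav segments, 0.689 for subfamilies, 0.263 for Traj and 1.70 for all genes, so the mean of the single Trav segments lay above that of all genes and their median below. This ratio also grows with the count of a gene.

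J counts were spread over many segments, at a much lower depth than V counts. They come from reads placed within a J segment, and whether that segment was joined to a V was not measured. All Traj counts were whole, and the 56 segments long enough to hold a 50-base word shared none of them with another gene. Traj18 led with 31 and 24 counts, or 7.01% (95% Clopper-Pearson interval 4.81 to 9.81) and 6.28% (4.07 to 9.21) of the Traj counts. Traj17 had 29 and 18 counts, Traj23 had 21 and 17, Traj27 had 18 and 15, and Traj9 had 19 and 14. Traj32 had 17 and 14 counts, Traj2 had 12 and 18, and Traj12 had 16 and 13. Traj49, with a mean of 14.5 counts like Traj12, had 17 and 12. The intervals of 8 other Traj segments overlapped that of Traj18 in both libraries, so the order among the leading segments was not detectable at this depth. The 8 leading segments took 36.9% and 34.8% of the Traj counts. At least 12 and 14 segments were needed to reach 50%, and the effective number of Traj segments was 37.2 and 40.6.

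Per length, the order of the leading J segments was another. Traj9 led with 169.91 and 141.7 TPM, followed by Traj23 with 153.65 and 140.78, Traj17 with 166.71 and 117.12, Traj27 with 144.87 and 136.64 and Traj18 with 146.76 and 128.6 TPM. Traj18 has an effective length of 17 nt and Traj9 of 9 nt, so 1 read is worth more TPM in Traj9. Traj33 had 11 and 8 counts, or 110.66 and 91.09 TPM. At the ends of the array, Traj61 and Traj1, both pseudogenes, had no count. Traj1 is 29 nt long and is 1 of 4 pseudogenes that are too short to hold a read and could not be counted.

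J counts were lower at the end of the array far from Trac, and whether they came from joined segments was not tested. The 30 Traj segments nearer Trac took 61.5% and 61.3% of the Traj counts, with a mean of 61.4 ± 0.199%. The counting intervals were wider than that SD, at 56.8 to 66.1% and 56.2 to 66.2%. In 5 groups of 12 in order towards Trac, the shares were 11.6 ± 2.06%, 14.7 ± 1.92%, 22.8 ± 0.637%, 31.4 ± 3.29% and 19.4 ± 2.52%. The highest group ran from Traj25 to Traj14 and holds Traj18, Traj17 and Traj23. The first group, Traj61 to Traj50, held 5 of the 9 pseudogenes. Per nucleotide of effective length, the groups had 0.317, 0.435, 0.667, 1.02 and 0.662 mean counts. Across the 51 J genes the Spearman correlation of TPM with order was 0.30 and that of mean count with effective length was 0.15, both descriptions.

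**Figure D4:**
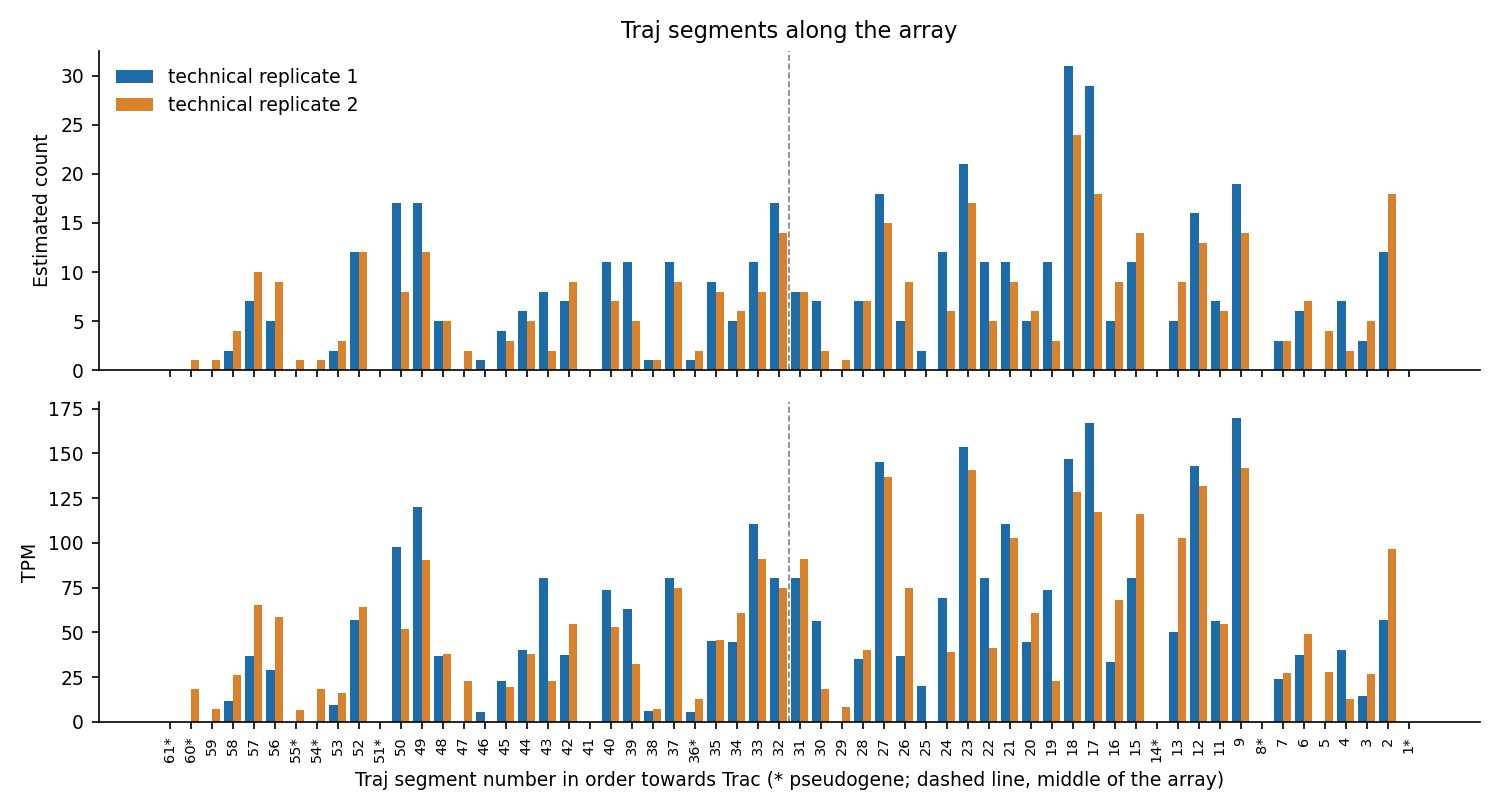
Estimated counts (top) and TPM (bottom) of the 60 Traj segments in order towards Trac, with bars for the technical libraries and asterisks on pseudogenes. Traj18 is highest by count at 31 and 24, Traj9 is highest by mean TPM, and the segments from Traj61 to Traj58 have at most 4 counts.

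J genes with and without the motif were set side by side as a description. The 44 J genes with a match had medians of 7 and 7.5 counts, and the 7 without a match had medians of 3 and 3. Those 7 were Traj33, Traj19, Traj20, Traj3, Traj59, Traj29 and Traj41, of which Traj33 had the highest counts, 11 and 8. The 9 J pseudogenes together had 1 and 5 counts.

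Chains of innate-like T cells use fixed segments of this locus, so these were read on their own. The invariant chain of mouse natural killer T cells joins Trav11 to Traj18. Trav11 with its d copy had 35.46 and 34.75 counts, and the whole subfamily took 0.475% and 0.589% of the Trav counts. Traj18 took 7.01% and 6.28% of the Traj counts. Zbtb16, the transcription factor that marks those cells, had 0 and 2 counts, and Klrb1c, which encodes the NK1.1 receptor, had 0.50 and 0.89 TPM. The chain of mucosal-associated invariant T cells joins Trav1 to Traj33. Trav1 had 41 and 48 counts, or 0.50% and 0.66% of the Trav counts, Traj33 took 2.49% and 2.09% of the Traj counts, and Mr1, the molecule that presents antigen to those cells, had 16.4 and 17.9 TPM. No file pairs a V segment with a J segment, so which V and J were joined was not measured.

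The genes that build and hold the alpha chain were set beside it. The RAG recombinase genes Rag1 and Rag2 had no count, with 3 counts coming to 0.195 and 0.221 CPM. Dntt, which adds bases at the joints, had 0.310 and 0.180 TPM, and Ptcra, the partner of the beta chain before an alpha chain exists, had 0.330 and 0.0800 TPM. The end-joining genes were present: Xrcc6 averaged 41.0 ± 0.820 TPM, Xrcc4 22.1 ± 4.40, Xrcc5 18.2 ± 0.849, Dclre1c 14.9 ± 1.08, Prkdc 7.10 ± 0.721, Nhej1 4.57 ± 1.58 and Lig4 2.82 ± 0.502 TPM. The CD3 and zeta chains, which carry the receptor to the surface and signal, ranged from 323 TPM for Cd247 to 1154 TPM for Cd3g, all below Trac. Of the 15 genes, 11 were tested between the libraries and 3 were called, where 19.2% of all genes tested were called. The 3 were Xrcc4, Lig4 and Cd247, each higher in technical replicate 1. The median log2 ratio of the 11 was −0.01, against 0.00 over all genes tested.

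The deposit also held a smaller gene table, which gave whole counts for 99 of the Trav segments and for Trac but for no Traj. In Trav segments its counts followed the share of unique words. Segments with all words unique had 92.0% and 92.2% of their larger-table counts in it, those with 50% or more unique had 54.7% and 56.9%, those under 50% had 22.5% and 22.6%, and those with no unique word had 2.66% and 2.54%. Trav17 had 96 and 93 counts in the smaller table against 94 and 95 in the larger. Trav1 had 40 and 44 against 41 and 48. Of the 13 identical pairs in which both copies are in the smaller table, 11 had no count there. The d and n blocks held 20.0% of the Trav counts in the smaller table, against 48.4% in the larger. Trav14 led the smaller table with 17.05%, where Trav7, with several of its segments not listed, had 9.83%. Of the 61 members tested in the smaller table none was called by the binomial test, where 6.62% of all genes tested were called.

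**Figure D5:**
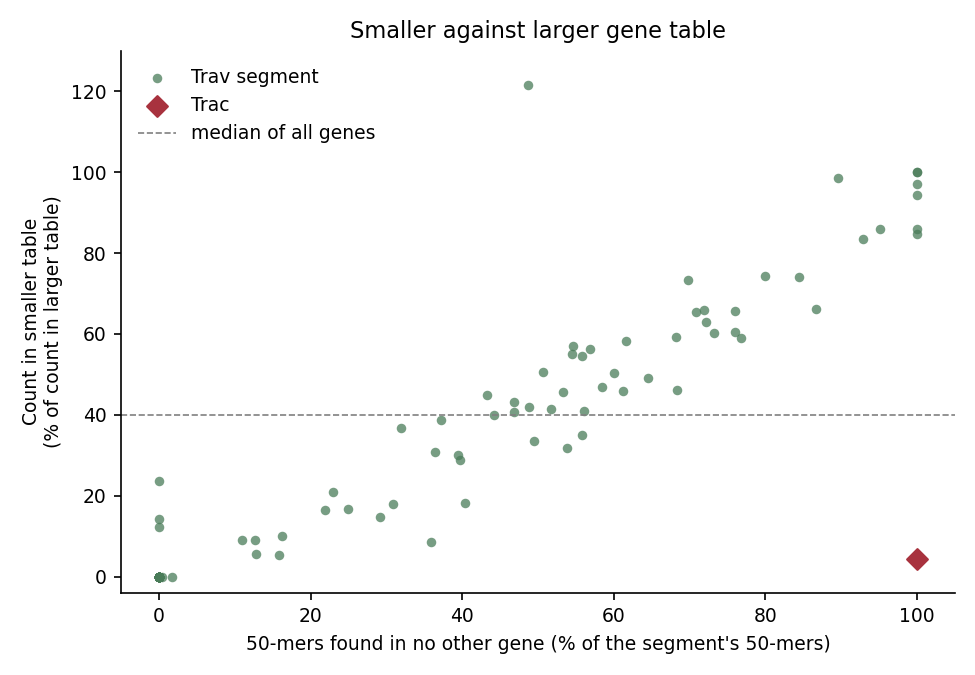
Count in the smaller table as a percent of the count in the larger table, both libraries summed, against the percent of a segment's 50-base words found in no other gene, for 92 Trav segments with a mean of at least 10 counts and for Trac. Trav segments rise with unique sequence, Trac lies far below them with all words unique, and the dashed line is the median of all genes, 40.0%.

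Trac went against this pattern. It had 1167 and 1139 counts in the smaller table, or 4.01% and 4.51% of its larger-table counts, although all of its words were unique. The median over all genes with at least 20 counts was 40.0%, and 6.36% of those genes had a share as low as Trac. The 6 Trav segments at that depth with all words unique had a median of 95.7%, so they too stood apart from most genes. In all, the smaller table held 23.3% and 24.0% as many counts as the larger. The identifier version of Trac differed between the tables, as it did for 88 of the 100 members in both, Trav17 and Trav1 among them. The part of the annotation in the low Trac count was not tested.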

How the data were processed

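Polyadenylated RNA was measured in 2 technical libraries of 1 group. The larger gene table holds the deposited estimated counts, posterior mean counts, TPM and posterior SD of the count (recorded as signal), per the file headers, for mm10 and GENCODE M21 genes. The deposited transcript table adds, per transcript, an estimated count, a TPM and its percent of the TPM of the gene. The smaller gene table holds whole-number counts per gene (GENCODE M4) that the authors made from genome alignments, per their deposited notes. The aligner, the quantifier, their versions and the use of strand are not given in the sources used here.

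Members were matched by gene name and copies summed by Trav number. Their choice and the gene lists were made with earlier results of these data known. Named were Trac, segments of the 6 leading subfamilies, the 8 leading Traj, array ends, segments with a large posterior SD, called members and fixed list genes. Estimated counts were rounded and compared between libraries by a two-sided exact binomial test on genes with at least 10 counts summed, with TMM sizes from edgeR 4.0.16 and Benjamini-Hochberg adjustment at 0.05. Shares have 95% Clopper-Pearson intervals, which cover the error of counting alone, as no molecular identifiers separate reads from molecules. Sequences and 50-base words came from GENCODE M21 transcripts (mm10). Genes held 99.83% and 99.84% of the estimated counts, and entries with no gene name were left out. Python 3.11.15, scipy 1.17.1 and DESeq2 1.42.0 (size factors) were used.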

Additional observations from a re-analysis of the deposited data

How the results depend on the processing

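Each value was recomputed under the alternatives listed for it. With posterior mean counts no share or effective number moved by more than its SD. With TPM, the Trav share of all genes was 0.199%, the effective number of Trav subfamilies 12.7, the Traj18 share of Traj 4.61%, the share of the Traj nearer Trac 63.7% and the Traj share of Trav plus Traj 60.2%, against 5.04% by counts. In the smaller table, the Trav share of all genes was 0.0656%, the Trav7 share 9.83%, the effective number of subfamilies 15.1, the share of the Trac-proximal segments 76.2% and that of the d and n blocks 20.0%. That table gave no Traj value, since no Traj is in it, and it lacks some Trav segments, several of Trav7 among them. Without pseudogenes the Trav share was 0.0532% and the share of the Traj nearer Trac 61.9%. With every segment by itself, the effective number was 75.2 and the leading segment, Trav7-4, took 5.60% of the Trav counts. Which of these differences come from copies was not tested beyond the values given.

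With 2 libraries, leaving 1 out returns the value of the other, so it adds no further check. The values were 0.0533 to 0.0537% for the Trav share, 18.0 to 18.8% for Trav7, and 12.3 to 12.5 for the effective number of subfamilies. They were 61.4 to 64.9% for the Trac-proximal Trav, 46.3 to 50.6% for the d and n blocks, and 6.28 to 7.01% for Traj18. They were 37.2 to 40.6 for the effective number of Traj, 61.3 to 61.5% for the Traj nearer Trac and 4.97 to 5.11% for the Traj share.

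Between the libraries, 3328 of 17334 genes (19.2%) and 11 of 143 members (7.69%) were called. Other library sizes gave 3316 and 3374 genes and 11 and 12 members, of the same numbers tested. With a minimum of 1 count, 2802 of 29305 genes and 10 of 168 members were called. With 50 counts, 2842 of 12543 genes and 5 of 81 members were called. The smaller table gave calls for 729 of 11019 genes and 0 of 61 members. With the common dispersion of edgeR 312 of 17334 genes and 7 of 143 members were called, and all 7 were among the 11. There the share of members called was above that of all genes, where by the binomial test it was below. With Trav summed by subfamily 3320 of 17248 genes and subfamilies and 1 of 57 members were called. No paired analysis was possible because there was 1 group.

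Depth limits the J segments most, with 442 and 382 counts over 60 segments. Read sharing limits the Trav copies, whose sums by subfamily varied less between the libraries than their single values. With 1 biological replicate, nothing here measures variation between animals.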
